A study of Mus musculus with 4 samples.

Results

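The genes of the fibroblast growth factor (FGF) system examined here were 4 receptors (Fgfr1, Fgfr2, Fgfr3 and Fgfr4) and 6 ligands (Fgf2, Fgf7, Fgf9, Fgf10, Fgf15 and Fgf18). They were taken by symbol from the deposited matrices, in which each symbol matched 1 row, and make up 10 of the 19465 genes measured. Expression was measured with Visium, which captures transcripts on a slide printed with barcoded spots, on formalin-fixed, paraffin-embedded coronal sections through the middle of the palate. All groups were whole heads of wild-type mouse embryos, C57BL/6J in the study's methods, with no allele or treatment that differed between them. The groups were the stages E14.5 and E15.5, on either side of palatal fusion, each with 2 capture areas: 1 of replicate 1 with a single section and 1 holding replicates 2, 3 and 4 as 3 sections.

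FGF ligands are secreted proteins that bind receptor tyrosine kinases together with heparan sulfate, and the receptors signal through adaptor proteins to the MAP kinase cascade. Which ligand acts on which receptor depends on the splice form of the receptor, so that ligands made in mesenchyme can act on epithelium and the reverse. In the embryonic head the system is known for roles in palate and tooth outgrowth, in cartilage and bone growth, in muscle and in the patterning of forebrain and eye.

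The 4 areas held 6357 spots over tissue and 281039627 unique molecular identifiers (UMIs, counts of captured molecules). E14.5 replicate 1 had 1106 spots and 15438992 UMIs, E14.5 replicate 2-4 had 2310 spots and 109127953 UMIs, E15.5 replicate 1 had 989 spots and 67344393 UMIs, and E15.5 replicate 2-4 had 1952 spots and 89128289 UMIs; values for the 4 areas are given in this order throughout. E14.5 replicate 1 stood apart in depth, with a median of 6752 UMIs per spot against 45059 to 64051 in the other areas, and section A of E14.5 replicate 2-4 had a median of 10038 against 59411 and 65616 for the other sections of its slide area. Of 3190 distinct spot barcodes 2170 occurred in 2 or more areas and 193 in all 4, as barcodes mark fixed slide positions. A capture area is 1 library, sections of an area share it, and nothing in the labels says that the areas of a stage came from separate embryos. The study describes its spatial experiments as biological triplicates without tying them to areas, so p-values measure only the spread between these areas. Levels are UMIs of a gene per 1000000 UMIs of the summed spots (CPM). The labels name the workflow for fixed tissue, which is known to read each gene by its own probes, while the protocol text describes capture of mRNA by poly-T primers. Genes can differ in capture under either, so the level of a gene was compared between places and not with that of another gene.

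A spot covers several cells, so regions were sets of spots chosen by marker lists in which no FGF gene takes part. In 13 regions at least 10 spots were found in every area, from 149 spots (tooth germ markers) to 785 (skeletal muscle markers), and 1845 spots (29.0%) met no list. The leading genes of most regions were those of their own list, such as Matn1, Cnmd and Acan in cartilage spots and Pmel, Tyr and Dct in pigment spots. The choice of spots by these same lists favours this, so it is no separate support for the names of the regions. Regions were not pure. In pigment spots the retina list reached 1735, 1289, 1791 and 803 CPM beside 2144, 1970, 3099 and 2635 CPM of the pigment list, where each sum adds up different genes. In oral and palatal mesenchyme spots the muscle list had 2289, 3872, 2745 and 4127 CPM and the basal and oral epithelium list 1231, 2171, 1754 and 1814 CPM, beside 1577, 1720, 1344 and 1342 CPM of their own list. In olfactory spots the cartilage list had 4545, 7464, 4854 and 6229 CPM beside 662, 688, 740 and 969 CPM of the olfactory list. In bone-forming spots it had 3788, 5155, 3591 and 4899 CPM beside 5948, 5062, 5720 and 7460 CPM of their own list. Tooth germ spots were led by Sostdc1 and Shh but also by Msx1 and Krt17 of other lists, and had 1919, 1709, 2045 and 1947 CPM of the basal and oral epithelium list and 2206, 2064, 1429 and 2357 CPM of the muscle list beside 1930, 1905, 1663 and 1655 CPM of their own. The lens list had 9.08, 10090, 763 and 5501 CPM in pigment spots and 4.46, 8882, 3777 and 10800 CPM in neural retina spots, whose own list had 3815, 2534, 3371 and 3175 CPM. In ventricular zone spots the choroid plexus list had 7.81, 4671, 3.13 and 27.3 CPM and the muscle list 236, 124, 23.5 and 1958 CPM. Their own list had 1608, 1296, 1763 and 1585 CPM. In basal and oral epithelium spots the muscle list had 1750, 4052, 2702 and 3707 CPM beside 5918, 7019, 6266 and 5652 CPM of their own list. In surface epidermis spots it had 2625, 3176, 3987 and 4318 CPM beside 7565, 4642, 7044 and 8113 CPM of their own list. The part of these other tissues in the calls of the regions was not tested. In sums of spots, fewer cells of a type and less RNA per cell cannot be told apart.

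Where in the head each gene was higher or lower than in the remaining tissue was tested with the UMIs of a region and of all other tissue spots summed in each area, with edgeR's quasi-likelihood test, the area as block and Benjamini-Hochberg adjustment over all genes, called at an adjusted p under 0.1. Fgfr3 was 4.82-fold higher in cartilage spots, Fgfr4 7.88-fold and Fgf7 3.39-fold higher in skeletal muscle spots, and Fgf15 19.0-fold and Fgf9 5.75-fold higher in neural retina spots. Fgfr2 was higher in the 2 epithelia, bone-forming, cartilage and tooth germ spots. No FGF gene of the 10 was higher in the cortical neuron, GABAergic forebrain, ventricular zone or olfactory epithelium spots.

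**Figure D1:**
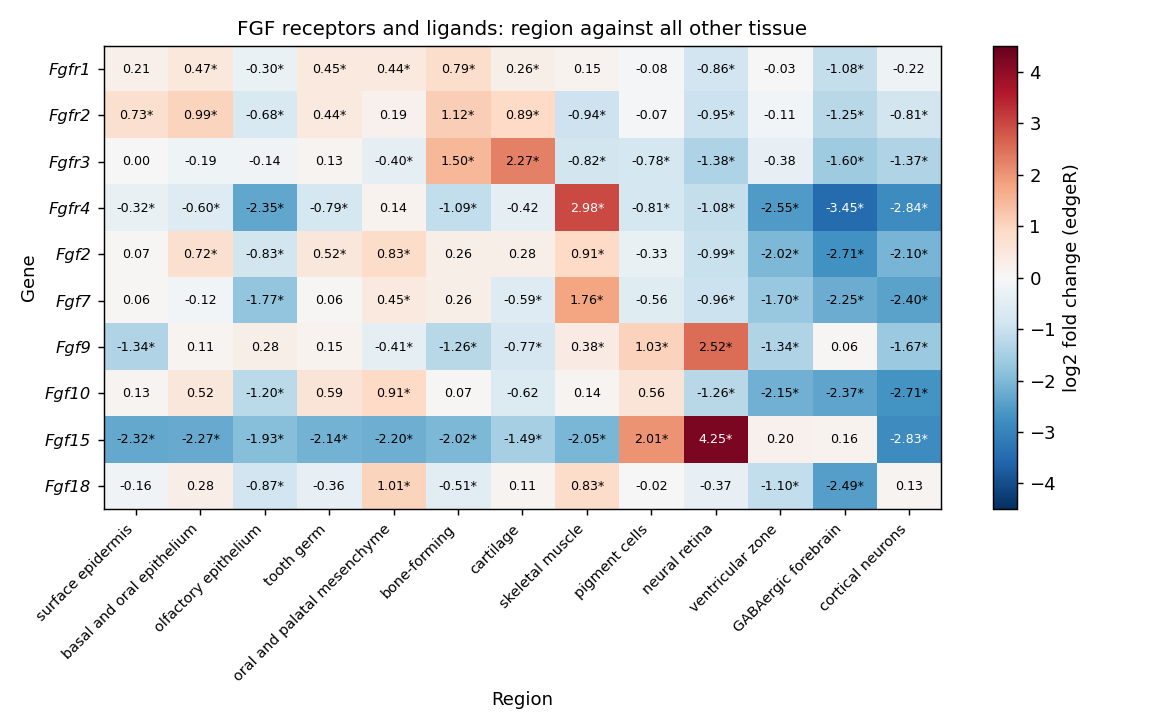
Log2 fold change of each of the 10 genes (rows) in 13 regions (columns) against all other tissue of the same areas, from edgeR with the area as block; marked cells passed an adjusted p under 0.1. The deepest colours are Fgf15 in neural retina (4.25), Fgfr4 in skeletal muscle (2.98) and Fgfr4 in GABAergic forebrain (-3.45).

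By tissue, 5 of the 10 genes were higher and 3 lower in skeletal muscle spots, where 20.7% of all genes tested were higher and 25.2% lower. In oral and palatal mesenchyme spots 5 were higher and 3 lower, against 13.2% and 19.1% of all genes. In bone-forming spots 3 were higher and 4 lower (24.8% and 26.3% of all genes), in cartilage 3 and 3 (13.9% and 11.3%), in basal and oral epithelium 3 and 2 (14.7% and 18.9%) and in tooth germ spots 3 and 2 (8.82% and 12.2%). Surface epidermis had 1 higher and 3 lower (21.6% and 27.8%), pigment spots 2 and 2 (8.04% and 9.37%) and neural retina 2 and 7 (16.0% and 19.6%). The brain and olfactory regions held only lower calls. These were 8 of 10 in cortical neuron spots (33.6% of all genes higher and 36.4% lower), 8 in GABAergic forebrain (34.6% and 40.0%), 6 in ventricular zone (28.4% and 31.0%) and 8 in olfactory epithelium (19.1% and 17.4%). Leaving out 1 area at a time, 3 to 8 were called in oral and palatal mesenchyme and 3 to 7 in cartilage. The number was 5 to 8 in olfactory epithelium and 3 to 6 in pigment spots.

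Upstream sequences are shown for Fgfr3, Fgfr4 and Fgf7, the 3 genes with the largest fold changes among the higher calls in cartilage and muscle. They come from RefSeq promoter windows (GRCm38.p6), which 8 of the 10 genes matched. Fgfr3 lies on the plus strand at chr5:33721674-33737068, Fgfr4 at chr13:55152640-55168759 and Fgf7 at chr2:126034658-126091185 (GRCm38, GENCODE). Each stretch is the plus strand, 5′ to 3′, and ends at the base before the annotated start of the gene. They were searched on both strands for the E-box CAGCTG, the letters that muscle regulatory factors such as MyoD bind, and for the GC box GGGCGG, and matches are in capitals.
Fgfr3, chr5:33721474-33721673: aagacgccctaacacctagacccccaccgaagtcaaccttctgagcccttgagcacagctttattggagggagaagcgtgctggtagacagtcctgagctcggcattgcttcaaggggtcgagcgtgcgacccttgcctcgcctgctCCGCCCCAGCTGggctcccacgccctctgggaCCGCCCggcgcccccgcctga
Fgfr4, chr13:55152568-55152639: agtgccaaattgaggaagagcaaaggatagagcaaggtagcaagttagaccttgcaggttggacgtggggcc
Fgf7, chr2:126034408-126034657: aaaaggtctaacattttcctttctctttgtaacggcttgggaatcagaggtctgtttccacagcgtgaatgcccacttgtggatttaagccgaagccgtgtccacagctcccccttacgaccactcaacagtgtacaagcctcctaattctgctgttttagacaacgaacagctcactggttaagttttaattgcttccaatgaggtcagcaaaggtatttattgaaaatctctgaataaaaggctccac

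The Fgfr3 stretch of 200 bases held 1 E-box and 2 GC boxes, both read on the minus strand, with 1 GC box directly beside the E-box and not overlapping it. Of 32851 promoters, 10.3% hold an E-box and 24.6% a GC box in the window of the same length and place. The 72 bases before Fgfr4 and the 250 bases before Fgf7 held neither motif. For those window lengths the shares of all promoters were 3.35% and 13.0% for the E-box and 7.35% and 32.7% for the GC box. These are matches of letters in short windows.

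Among the receptors, Fgfr1, which is expressed broadly in mesenchyme, had 171116 UMIs in all tissue spots and was called higher in 5 regions and lower in 3. It reached 767, 1048, 808 and 775 CPM in bone-forming spots against 490, 641, 527 and 563 CPM in the rest of the same areas. Bone-forming spots were above the rest of their own area in all 4 areas, by 0.79 on the log2 scale (SE 0.07, adjusted p = 1.2e-04, edgeR's quasi-likelihood test). Smaller called differences were found in basal and oral epithelium (0.47), tooth germ (0.45), oral and palatal mesenchyme (0.44) and cartilage spots (0.26, adjusted p = 0.064, not called in 9 of 14 alternative settings). Fgfr1 was lowest in GABAergic forebrain, at 289, 324, 259 and 223 CPM (log2 fold change -1.08), and was also called lower in neural retina (-0.86) and olfactory epithelium (-0.30). The order of its levels was not resolved at the top. Bone-forming, basal and oral epithelium, oral and palatal mesenchyme and tooth germ spots had means of 849 ± 134, 812 ± 86.3, 806 ± 156 and 801 ± 36.8 CPM (SD, n = 4 areas), and their ranges overlapped.

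Fgfr2, whose epithelial splice form receives mesenchymal ligands such as Fgf7 and Fgf10, was highest in epithelium and skeleton; the counts per gene do not separate splice forms. Basal and oral epithelium spots had 281, 215, 291 and 281 CPM against 96.8, 105, 139 and 180 CPM elsewhere, and bone-forming spots had 201, 188, 260 and 304 CPM against 95.8, 101, 135 and 168 CPM. In both regions the level was above that of the rest in each of the 4 areas, with log2 fold changes of 0.99 (SE 0.12, adjusted p = 2.9e-04, edgeR's quasi-likelihood test) and 1.12 (SE 0.07, adjusted p = 2.4e-05). Cartilage (0.89), surface epidermis (0.73) and tooth germ spots (0.44) were higher as well. Fgfr2 was lower in GABAergic forebrain (-1.25), neural retina (-0.95), skeletal muscle (-0.94), cortical neuron (-0.81) and olfactory spots (-0.68). Muscle spots had 41.0, 65.1, 84.1 and 86.3 CPM, so that every muscle value lay below every bone-forming and every epidermal value. The top 4 regions, with means from 225 to 267 CPM, overlapped in range.

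Fgfr3, known as a restraint on the growth of cartilage in the skeleton, stood out in the skeletal regions. Cartilage spots had 269, 151, 217 and 218 CPM and bone-forming spots 114, 94.95, 126 and 124 CPM, against 40.0, 39.8, 42.2 and 55.7 CPM in tissue outside cartilage. Cartilage was above bone-forming in each of the 4 areas, and both were above every other region, where no value passed 73.1 CPM. The log2 fold changes were 2.27 (SE 0.13, adjusted p = 1.9e-05, edgeR's quasi-likelihood test) in cartilage and 1.498 (SE 0.10, adjusted p = 3.4e-05) in bone-forming spots. The cartilage list was high in bone-forming spots as well, and its part in their Fgfr3 level was not tested. Cartilage spots held 4.92% of all UMIs and 18.4% of those of Fgfr3. With distance from the nearest cartilage spot, the mean level over areas was 214 CPM in cartilage, 91.7 CPM at 1 spot spacing, 66.5 CPM at 2, 52.7 CPM at 3 and 32.0 CPM at 6 or more. Fgfr3 was called lower in GABAergic forebrain (-1.60), neural retina (-1.38), cortical neuron (-1.37), skeletal muscle (-0.82), pigment (-0.78) and oral and palatal mesenchyme spots (-0.40). In muscle 1 area went the other way, with 60.1 CPM in E14.5 replicate 1 against 24.4 to 28.4 CPM in the other areas. In oral and palatal mesenchyme, too, only 3 of 4 areas were lower than their rest.

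Fgfr4, a receptor present in developing skeletal muscle, was called higher in 1 region. It reached 127.1, 123, 117 and 118 CPM in muscle spots and 10.9, 15.9, 16.1 and 22.5 CPM in all other tissue of the same areas. The 4 muscle values lay between 116.7 and 127.1 CPM, all above the largest value of any other region (44.9 CPM, oral and palatal mesenchyme of E15.5 replicate 2-4). The log2 fold change was 2.98 (SE 0.16, adjusted p = 1.9e-05, edgeR's quasi-likelihood test). Muscle spots held 15.6% of all UMIs and 55.5% of those of Fgfr4. Oral and palatal mesenchyme came next at 25.5, 37.4, 30.0 and 44.9 CPM and was not called (0.14, adjusted p = 0.47). In those spots Fgfr4 and the muscle list had the same order, lowest in E14.5 replicate 1 and highest in E15.5 replicate 2-4, and the part of muscle RNA in it was not tested. Fgfr4 was lower in 10 regions (in basal and oral epithelium in 3 of 4 areas), most in GABAergic forebrain (4.19, 2.48, 2.48 and 2.99 CPM, log2 fold change -3.45), cortical neuron (-2.84), ventricular zone (-2.55) and olfactory spots (-2.35).

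**Figure D2:**
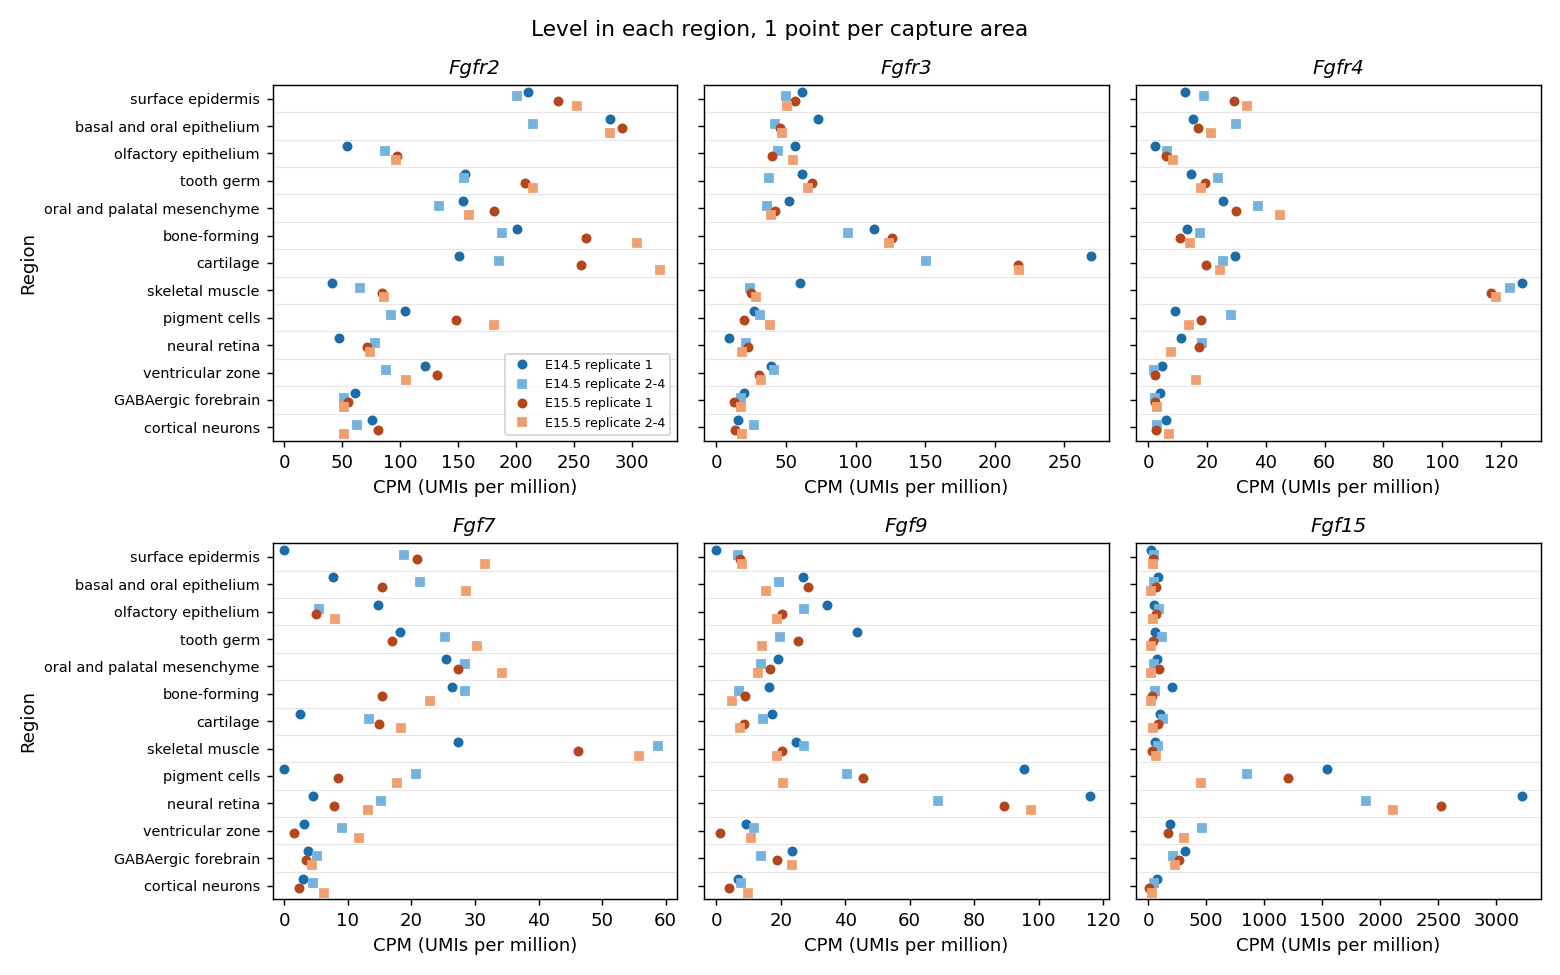
CPM of Fgfr2, Fgfr3, Fgfr4, Fgf7, Fgf9 and Fgf15 (x axes, linear) in each region (y axis), with 1 point per capture area coloured by area. Fgfr4 points of skeletal muscle lie between 116.7 and 127.1 CPM, and the Fgf15 points of neural retina between 1874 and 3221 CPM, each clear of all other regions.

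Of the ligands, Fgf2, which acts on several receptors and is held in the extracellular matrix, was higher in soft oral tissue and muscle. Muscle spots had 31.4, 44.0, 39.7 and 44.7 CPM against 13.7, 23.6, 20.8 and 33.5 CPM elsewhere, and oral and palatal mesenchyme had 31.9, 54.2, 38.1 and 54.8 CPM against 13.8, 25.0, 23.8 and 34.7 CPM. Each area had more Fgf2 in both regions than in the rest, with log2 fold changes of 0.91 and 0.83 (SE 0.13 and 0.12, adjusted p = 0.0012 and 0.0020, edgeR's quasi-likelihood test). Basal and oral epithelium (0.72) and tooth germ spots (0.52) were called higher too. The ranges of these 4 regions overlapped. Fgf2 was lowest in GABAergic forebrain, at 3.35 to 4.47 CPM (-2.71), and was lower in cortical neuron (-2.10), ventricular zone (-2.02), retina (-0.99) and olfactory spots (-0.83). In surface epidermis of E14.5 replicate 1 no UMI was seen among the 20 spots, where a count of 0 allows up to 37.1 CPM for counting error alone.

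Fgf7, a mesenchymal ligand of the epithelial form of Fgfr2, was highest in muscle spots, at 27.3, 58.8, 46.2 and 55.8 CPM against 8.70, 15.9, 13.0 and 23.4 CPM in other tissue. Muscle lay above every other region in each area, by 1.76 on the log2 scale over the rest (SE 0.14, adjusted p = 8.1e-05, edgeR's quasi-likelihood test), and held 36.7% of the Fgf7 UMIs. Oral and palatal mesenchyme followed at 25.5, 28.5, 27.4 and 34.2 CPM (0.45, adjusted p = 0.075), again with the muscle list high in the same spots. Basal and oral epithelium, among the regions highest in Fgfr2, had 7.69, 21.4, 15.4 and 28.6 CPM and was not called (-0.12, adjusted p = 0.58). Fgf7 was lower in cortical neuron (-2.40), GABAergic forebrain (-2.25), olfactory (-1.77), ventricular zone (-1.70), retina (-0.96) and cartilage spots (-0.59). In the olfactory spots 1 area, E14.5 replicate 1, was above its rest with 14.7 CPM.

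Fgf10, the other mesenchymal ligand of epithelial Fgfr2, was too sparse for a firm map. It had 649 UMIs in all spots, at most 6 in 1 spot. In oral and palatal mesenchyme it reached 4.78, 4.26, 4.83 and 4.18 CPM from 3, 19, 9 and 16 UMIs, against 4.79, 1.47, 2.54 and 2.47 CPM elsewhere. The level was above the rest in 3 of 4 areas and level with it in E14.5 replicate 1, and the log2 fold change of 0.91 (SE 0.29) had an adjusted p of 0.052 by edgeR's quasi-likelihood test and lost its call in 5 of 13 alternative settings. Among the 13 regions the highest mean was that of basal and oral epithelium, 6.40 ± 6.34 CPM (SD, n = 4), which rested on 4 UMIs in E14.5 replicate 1 (15.4 CPM, with a 95% exact Poisson interval of 4.19 to 39.4 CPM). Spots that met no list had 15.1, 2.36, 5.15 and 3.65 CPM of Fgf10, from 45, 57, 63 and 74 UMIs. Lower calls were in cortical neuron, GABAergic forebrain, ventricular zone, retina and olfactory spots, with 0 to 8 UMIs an area.

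Fgf9 and Fgf15 shared the eye. Fgf9 acts from epithelium and neural tissue on mesenchymal receptors, and Fgf15 is a ligand of the embryonic neural tube and retina. In neural retina spots Fgf15 had 3221, 1874, 2528 and 2111 CPM against 170, 172, 103 and 86.5 CPM elsewhere, and Fgf9 had 116, 68.9, 89.3 and 97.5 CPM against 18.6, 17.0, 14.9 and 13.4 CPM. Retina was above every other region in each area for both genes. The log2 fold changes were 4.25 for Fgf15 (SE 0.22, adjusted p = 1.6e-04, edgeR's quasi-likelihood test) and 2.52 for Fgf9 (SE 0.15, adjusted p = 2.1e-04). Retina spots held 5.18% of all UMIs, 48.9% of those of Fgf15 and 22.7% of those of Fgf9.

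Of the 13 regions, pigment spots had the second highest mean of both genes. In E15.5 replicate 2-4, however, GABAergic forebrain had more Fgf9 (23.5 CPM). Pigment spots had 1544, 852, 1209 and 458 CPM of Fgf15 (log2 fold change 2.01, adjusted p = 6.5e-07, edgeR) and 95.4, 40.5, 45.4 and 20.6 CPM of Fgf9 (1.03, adjusted p = 0.0051). Both genes and the retina list were lowest in the same area, E15.5 replicate 2-4, and the part of retina RNA in the pigment values was not tested. In brain, Fgf15 had 187, 464, 175 and 306 CPM in ventricular zone and 315, 217, 270 and 233.9 CPM in GABAergic forebrain spots, and neither was called. The cortical neuron spots had 75.1, 54.7, 11.5 and 31.0 CPM, and Fgf15 was lower there (-2.83) and in 8 further regions, by 1.49 to 2.32 on the log2 scale. Fgf9 was slightly higher in muscle (0.38, adjusted p = 0.066, in 3 of 4 areas) and lower in cortical neuron (-1.67), surface epidermis (-1.34), ventricular zone (-1.34), bone-forming (-1.26), cartilage (-0.77) and oral and palatal mesenchyme spots (-0.41).

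**Figure D3:**
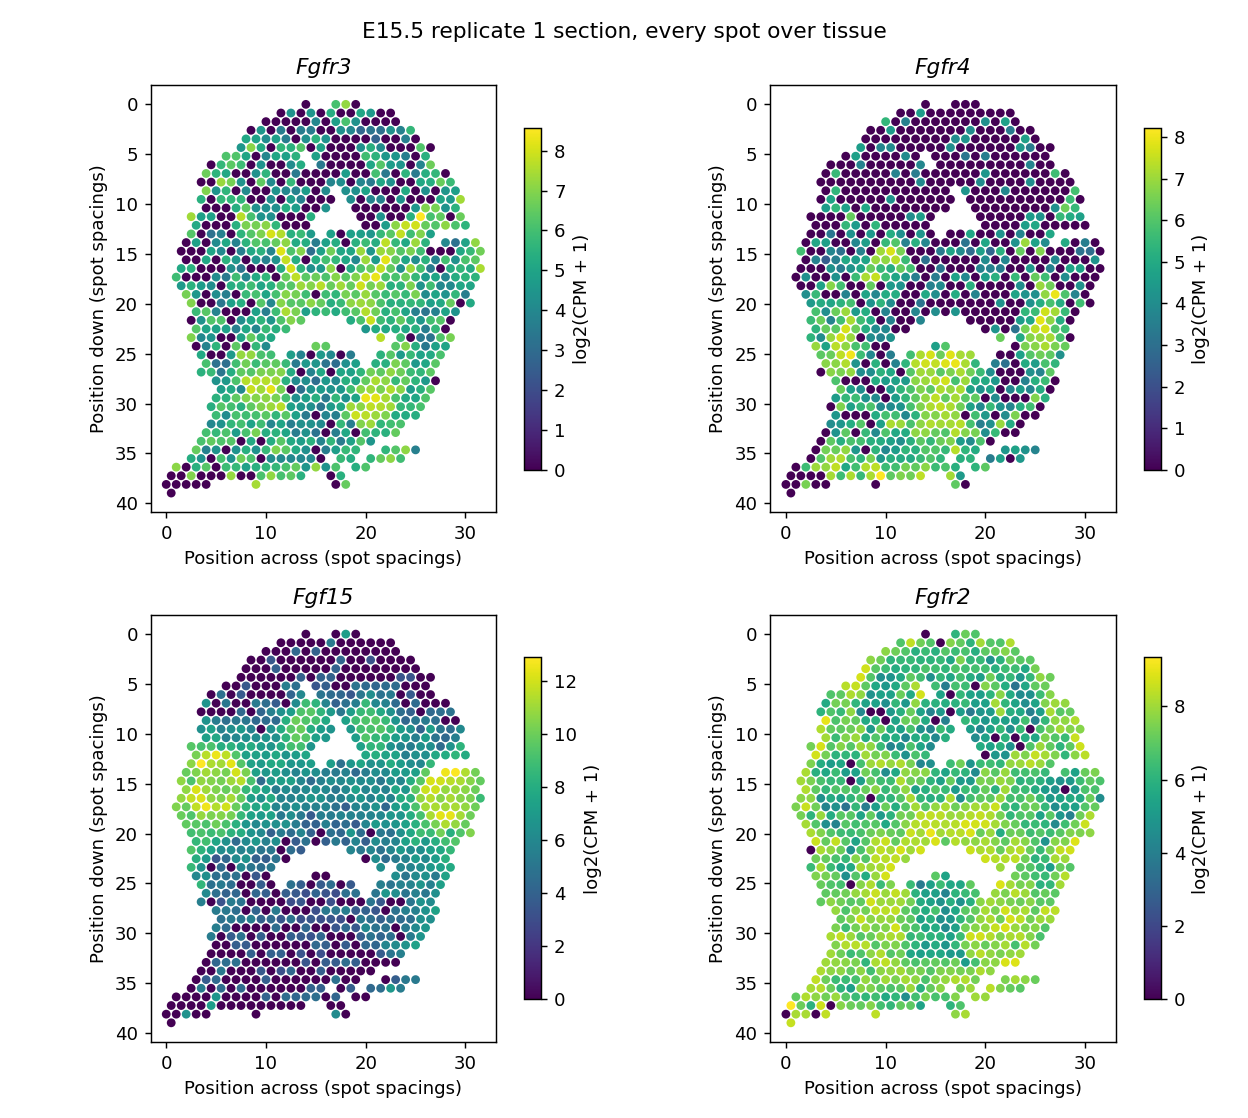
Spots of the E15.5 replicate 1 section at their slide positions (in spot spacings), coloured by log2(CPM + 1) of Fgfr3, Fgfr4, Fgf15 and Fgfr2. Of 987 spots, those brightest for Fgf15 form a patch on each side of the section and those brightest for Fgfr4 a patch where Fgfr2 is dim.

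Fgf18, a ligand known from bone and cartilage growth, was not higher in the skeletal regions at these stages. Oral and palatal mesenchyme spots had 6.37, 16.8, 20.4 and 25.6 CPM against 6.68, 7.003, 9.71 and 12.4 CPM elsewhere, and muscle spots had 8.20, 13.4, 15.6 and 16.2 CPM against 6.60, 6.51, 8.78 and 12.2 CPM. In mesenchyme 3 of 4 areas, and in muscle all 4, were above their rest, with log2 fold changes of 1.01 (SE 0.17, adjusted p = 0.0043, edgeR's quasi-likelihood test) and 0.83 (SE 0.15, adjusted p = 0.0042). Bone-forming spots had 4.94, 5.95, 6.03 and 6.77 CPM and were lower (-0.51, adjusted p = 0.043), while cartilage was not called (0.11, adjusted p = 0.72). Fgf18 was also lower in GABAergic forebrain (-2.49), ventricular zone (-1.10) and olfactory spots (-0.87). In ventricular zone E15.5 replicate 2-4 went the other way, with 15.5 CPM against 12.9 CPM elsewhere. The muscle list had 1958 CPM in the ventricular zone spots of that area, against 23.5 to 236 CPM in the other areas. Its part in the Fgf18 value was not tested. Fgf18 had 2737 UMIs in all spots.

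The likeness of the 10 maps was described over the 52 sums of 13 regions in 4 areas, as Pearson correlations of log2(CPM + 1); the sums of an area share a library and its depth, and no test was made. Within the family, Fgf2 and Fgf7 were most alike (r = 0.80), followed by Fgfr4 and Fgf2 (0.73), Fgfr1 and Fgfr2 (0.71) and Fgfr2 and Fgfr3 (0.70). Fgf9 and Fgf15 had r = 0.65, and Fgfr1 and Fgf15 had the most opposed maps (-0.51). Among 13050 genes, the 3 most like Fgfr4 were Flnc, Srpk3 and Tpm2 (r = 0.93 each), of which Flnc and Tpm2 encode proteins of the muscle contractile apparatus. Those most like Fgf7 were Actn3, a muscle actinin (0.92), Ptges3l (0.91) and Traf5 (0.90). Fgfr3 was most like Ccn1 (0.85), Col11a2, a cartilage collagen of the marker list (0.84), and Trpv4 (0.84). Fgf15 was most like Onecut2 and Onecut1, transcription factors of the retina (0.90 and 0.87), and Six3 of the retina list (0.87). Fgfr1 was most like Cavin3 (0.91), Tagln2 (0.88) and Amotl1 (0.83), Fgf2 like Dnase1l1 (0.92) and Setd7 (0.90), and Fgf9 like Gpr37 (0.85), Tmem132e (0.85) and Epb41l4a (0.83). The likenesses were weaker for Fgfr2 with Pltp, Car13 and Tnfrsf19 (0.78 to 0.79) and for Fgf18 with Cybb, Nfatc2 and Mrgprf (0.71 to 0.72). No likeness is given for Fgf10, whose counts in most sums were too few.

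Whether FGF genes were higher beside epithelium was asked with spots that touch basal and oral epithelium or surface epidermis spots but lie outside both. They were set against spots more than 3 spot spacings away from both. Spots chosen by olfactory or multiciliated epithelium markers were counted as outside epithelium here. Of the 10 genes 7 were higher beside epithelium and 1 was lower, where 30.4% of all genes were higher and 33.4% lower. Fgf2 had 38.0, 47.7, 38.4 and 45.1 CPM in touching spots and 9.89, 16.3, 14.9 and 27.3 CPM farther away, and Fgf7 had 24.1, 36.4, 30.7 and 31.9 CPM against 6.50, 13.2, 11.3 and 21.4 CPM. For both ligands every touching value was above every value farther away, by 1.28 (SE 0.17, adjusted p = 5.2e-04, edgeR's quasi-likelihood test) and 1.20 (SE 0.18, adjusted p = 0.0011) on the log2 scale. The receptors Fgfr4 (0.82), Fgfr1 (0.66) and Fgfr2 (0.63) and the ligands Fgf10 (0.70) and Fgf18 (0.68, in 3 of 4 areas) were higher as well, the call of Fgf18 being lost without E14.5 replicate 2-4 (0.44). That of Fgf10 was lost with each area thinned to the lowest mean UMIs per tissue spot. Fgf15 was lower (-1.71), and Fgfr3 (-0.02) and Fgf9 (-0.27, adjusted p = 0.12) were not called.

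What lies near and far differed. Spots chosen by brain, retina, lens or choroid plexus markers were 1.62% to 6.87% of touching and 30.6% to 53.6% of farther spots, and the muscle list had 3443, 6527, 7131 and 6261 CPM near against 961, 2493, 2590 and 4642 CPM far. The basal and oral epithelium list had 1519, 2285, 2147 and 1772 CPM near against 148, 358, 271 and 360 CPM far. The bone-forming list had 1177, 1509, 958 and 2047 CPM near against 269, 448, 357 and 973 CPM far. The cartilage list went the other way, with 1044, 1608, 1266 and 1538 CPM near against 2883, 3997, 3753 and 8291 CPM far. So did the olfactory list, with 9.26, 9.35, 19.3 and 12.9 CPM near against 54.8, 67.7, 88.8 and 110 CPM far. The part of epithelial, muscle, bone, cartilage and olfactory RNA in the calls was not tested. With those neural and eye spots left out of the farther group, a choice made after seeing the data, 7 genes were called, where 21.7% of all genes were higher and 25.3% lower. Fgf2 (0.69), Fgf7 (0.63), Fgfr1 (0.51), Fgf18 (0.43) and Fgfr2 (0.33) were still higher and Fgf15 lower (-1.33), while Fgfr4 (0.18, adjusted p = 0.27) and Fgf10 (0.05, adjusted p = 0.87) lost their calls and Fgfr3 was lower (-0.51, adjusted p = 0.0059).

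By distance, the mean of Fgfr2 over areas was 249 CPM in epithelium, 174 CPM at 1 spot spacing, 131 CPM at 3 and 105 CPM at 6 or more. Fgf2 had its highest mean beside epithelium, 42.3 ± 4.86 CPM (SD, n = 4), against 33.8 ± 13.0 CPM within it and 13.1 ± 5.86 CPM at 6 or more. Fgf7 stayed between 29.3 and 30.8 CPM at 1 to 3 spacings, with 19.0 CPM within epithelium and 7.90 CPM at 6 or more. Fgfr4 peaked at 3 spacings (54.6 ± 7.17 CPM), and Fgf15 went from 52.9 CPM in epithelium to 503 CPM at 5 spacings and 254 CPM at 6 or more. For Fgf2 and Fgf7 the ranges within and beside epithelium overlapped.

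**Figure D4:**
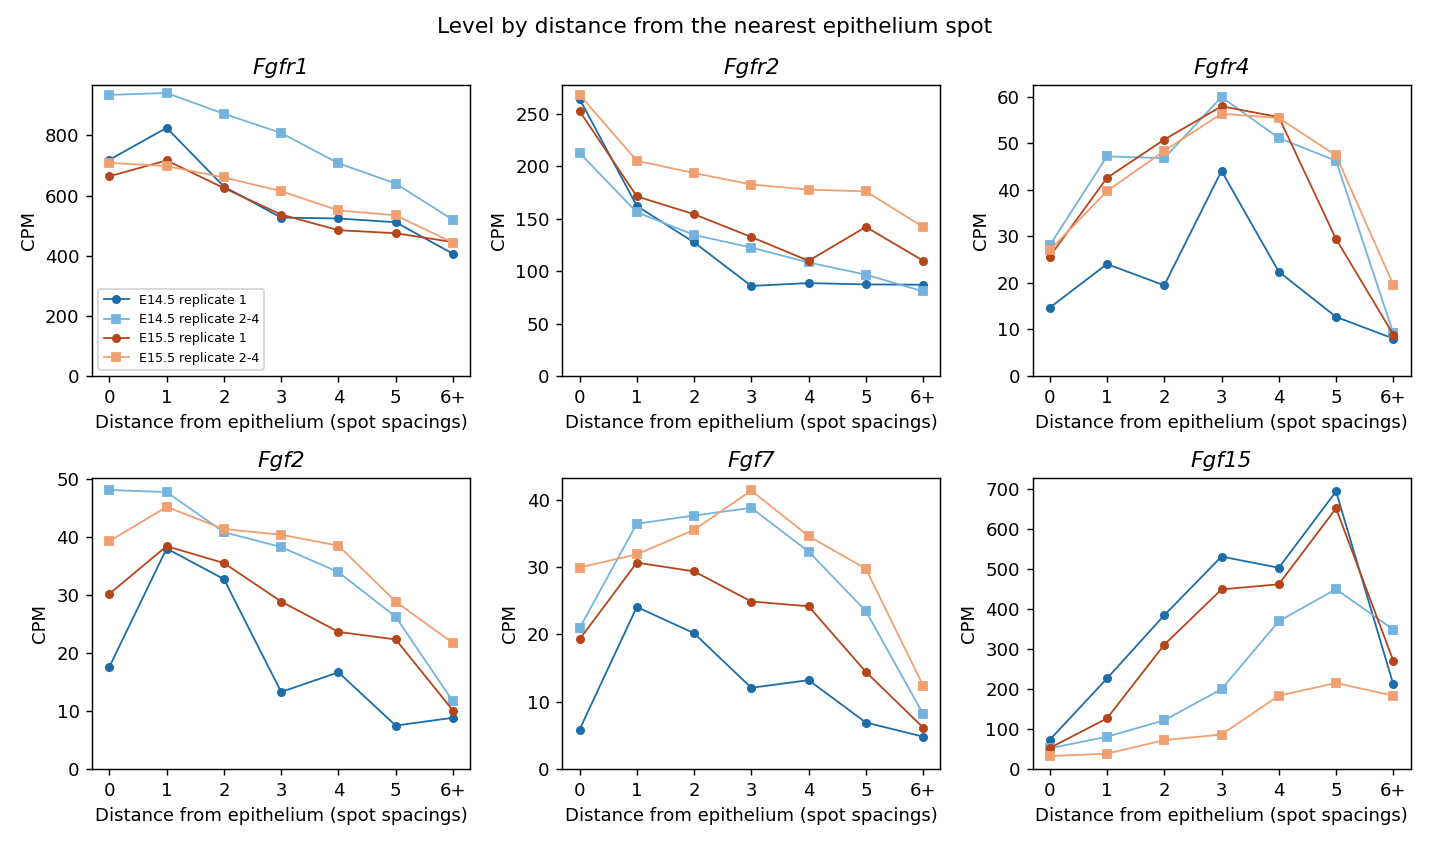
CPM of Fgfr1, Fgfr2, Fgfr4, Fgf2, Fgf7 and Fgf15 (y axes, from 0) by distance from the nearest epithelium spot in spot spacings (x axis, 0 is epithelium, the last class is 6 or more), with 1 line per capture area. Fgfr2 is highest at 0 with a mean of 249 CPM, and Fgf2 at 1 with 42.3 CPM.

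Between the stages no gene of the 10 was called over all tissue, and none of 15609 genes was, so that 0% were higher and 0% lower at E15.5; 930 genes had an unadjusted p under 0.05, and DESeq2 called 28 genes, none of them among the 10. Fgfr2 had 99.9 and 109 CPM at E14.5 and 143 and 186 CPM at E15.5, and Fgf18 had 6.67 and 7.40 against 10.0 and 12.9 CPM. Both genes were higher in each E15.5 area than in each E14.5 area, with log2 differences of 0.59 (SE 0.24, adjusted p = 0.77, edgeR's quasi-likelihood test) and 0.63 (SE 0.32, adjusted p = 0.77). Fgfr3 and Fgfr4 did not overlap either, at 46.0 and 44.5 against 47.1 and 68.4 CPM and at 16.4 and 29.9 against 34.3 and 40.4 CPM. Of all genes, 24.9% were higher without overlap and 15.2% lower, so the 4 of 10 are to be read against these shares. Fgf15 had 347 and 274 CPM at E14.5 and 315 and 116 CPM at E15.5. By section, 4 a stage, 1 of the 10 genes, Fgf18, did not overlap, with 6.68 to 9.53 CPM at E14.5 and 10.0 to 14.4 CPM at E15.5. Of all genes 6.07% were higher and 3.27% lower without overlap by section, and 3 of the 4 sections of each stage share a library.

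**Figure D5:**
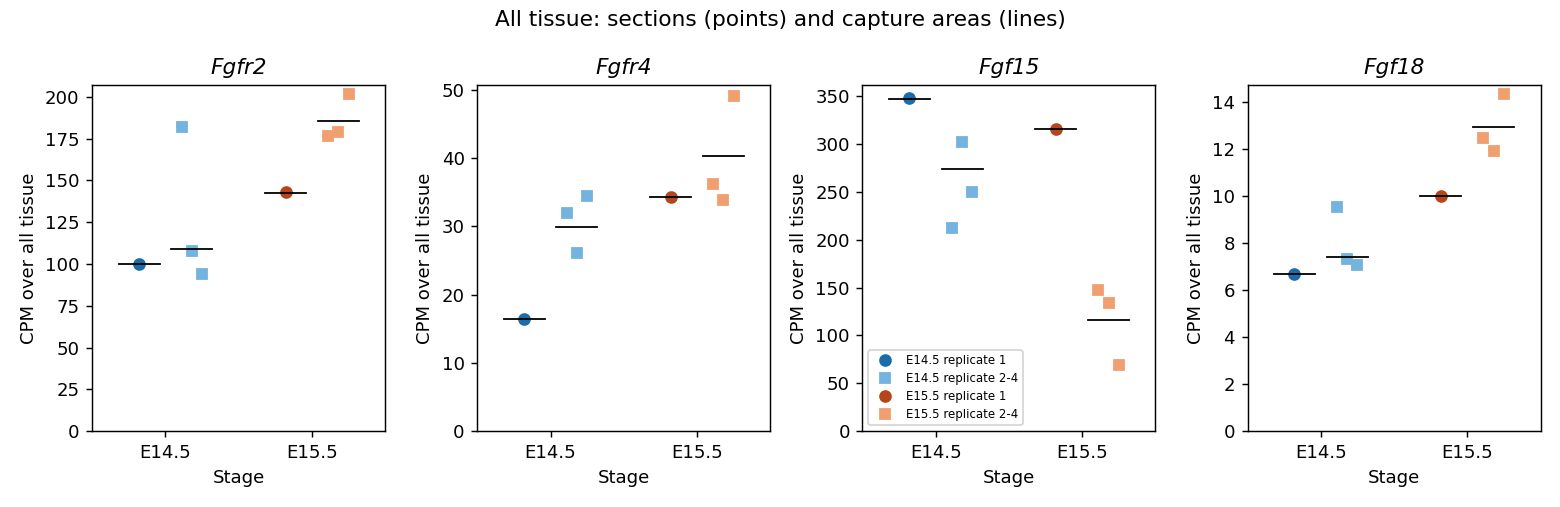
CPM over all tissue (y axes, from 0) of Fgfr2, Fgfr4, Fgf15 and Fgf18 at E14.5 and E15.5 (x axes), with a point for each of 4 sections a stage and a line for each capture area. Sections of the stages overlap for Fgfr2, Fgfr4 and Fgf15, and for Fgf18 they lie at 6.68 to 9.53 against 10.0 to 14.4 CPM.

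Within regions, Fgfr2 was higher at E15.5 without overlap in 9 of 13 regions and Fgf18 in 7. In cartilage Fgfr2 had 150 and 185 CPM at E14.5 and 256 and 324 CPM at E15.5, in skeletal muscle 41.0 and 65.1 against 84.1 and 86.3 CPM. Fgfr2 overlapped between the stages in cortical neuron, GABAergic forebrain, ventricular zone and retina spots. The shares of all genes higher at E15.5 without overlap were 22.6% in surface epidermis, 19.0% in basal and oral epithelium, 19.1% in olfactory epithelium, 15.6% in bone-forming, 14.7% in cartilage, 19.0% in skeletal muscle, 17.7% in oral and palatal mesenchyme, 19.2% in tooth germ, 17.1% in cortical neuron, 16.2% in GABAergic forebrain, 9.77% in ventricular zone, 15.8% in neural retina and 17.3% in pigment spots.

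In the other direction, Fgfr1 was lower at E15.5 without overlap in 5 regions and Fgf15 in 4. Fgfr1 had 874 and 994 CPM in oral and palatal mesenchyme at E14.5 and 680 and 676 CPM at E15.5, and in bone-forming spots Fgf15 had 204 and 60.8 CPM against 31.9 and 28.4 CPM. The own list of oral and palatal mesenchyme spots had 1577 and 1720 CPM at E14.5 against 1344 and 1342 CPM at E15.5. In bone-forming spots the retina list had 199 and 91.3 CPM against 46.3 and 52.9 CPM. The part of either list in these differences was not tested. The shares of all genes lower at E15.5 without overlap were, in the same order of regions, 10.7%, 8.94%, 11.4%, 10.5%, 9.66%, 9.25%, 10.5%, 14.5%, 12.5%, 14.5%, 9.63%, 9.54% and 9.02%.

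Whether the difference of a region from its surrounding tissue changed between the stages was tested as an interaction. In basal and oral epithelium the ratio to other tissue was lower at E15.5 for 1 gene of the 10 (1.57% of all genes higher, 0.827% lower) and in bone-forming spots for 2 (2.34% and 0.731%). The ratio of Fgfr4 in basal and oral epithelium to other tissue was 0.94 and 1.01 at E14.5 and 0.49 and 0.52 at E15.5, a log2 difference of -1.003 (SE 0.26, adjusted p = 0.051, edgeR's quasi-likelihood test). In bone-forming spots the ratios of Fgfr4 were 0.80 and 0.57 against 0.30 and 0.33 (-0.83, adjusted p = 0.085), and those of Fgf7 were 2.96 and 1.37 against 0.80 and 0.76 (-0.92, adjusted p = 0.081). The ratios of the stages did not overlap in these 3 cases. For Fgfr4 the levels inside both regions overlapped between the stages, and those of the tissue outside were 16.4 and 29.9 against 34.8 and 41.4 CPM around basal and oral epithelium. Fgf7 in bone-forming spots had 26.3 and 28.4 CPM at E14.5 and 15.4 and 22.98 CPM at E15.5. All 3 calls were lost without E15.5 replicate 1 and without E15.5 replicate 2-4, and both Fgfr4 calls were also lost without E14.5 replicate 2-4. For Fgf15 in neural retina the ratios were 19.0 and 10.9 against 24.5 and 24.4 (0.76, adjusted p = 0.16), which was not called.

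The remaining FGF pathway was followed with 51 further genes in 4 lists, of which 44 to 48 were tested in each comparison. The feedback inhibitors and targets, such as the Spry, Spred, Dusp and Etv genes that FGF signalling is known to induce, had more higher than lower calls in muscle, epithelia and oral mesenchyme. Of 10 tested, 7 were higher and 1 lower in muscle spots (median log2 fold change 0.46), 6 and 0 in basal and oral epithelium (0.39), 6 and 0 in oral and palatal mesenchyme (0.36), 5 and 1 in surface epidermis (0.26) and 7 and 1 beside epithelium (0.41), where the median of all genes was -0.01, -0.0019, -0.02, -0.04 and -0.02. The shares of all genes higher and lower there were 20.7% and 25.2%, 14.7% and 18.9%, 13.2% and 19.1%, 21.6% and 27.8%, and 30.4% and 33.4%. With the neural and eye spots left out of the farther group the count beside epithelium was again 7 and 1 (0.27, against 0.0016 for all genes). In bone-forming spots 1 was higher and 7 lower (median -0.30), in GABAergic forebrain 1 and 8 (-1.17) and in cortical neuron spots 1 and 8 (-0.66), where 26.3%, 40.0% and 36.4% of all genes were lower and the medians of all genes were -0.01, -0.06 and -0.03. Etv4, a transcription factor of this group, had 58.1, 68.0, 187 and 103 CPM in tooth germ against 25.7, 37.5, 33.4 and 29.6 CPM elsewhere (log2 fold change 1.69, adjusted p = 0.0018, edgeR). The 12 transduction genes had medians between -0.11 and 0.31 in the 13 regions. Of these 12, 8 were higher and 2 lower in cortical neuron spots, 6 and 2 in GABAergic forebrain and 5 and 1 in ventricular zone, where 33.6%, 34.6% and 28.4% of all genes were higher.

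Among other ligands, Fgf5 and Fgf6 were higher in muscle spots, by 2.82 and 3.06 on the log2 scale, at 2.62 to 4.10 and 4.10 to 7.38 CPM, and Fgf14, an intracellular homologous factor of neurons, was lower (-2.73). Fgf3 was higher in neural retina (29.0, 11.4, 27.7 and 28.6 CPM against 6.05, 2.14, 5.03 and 2.77 CPM, log2 fold change 2.63), beside Fgf9 and Fgf15. Fgf20 was higher in olfactory epithelium (7.35, 10.0, 7.48 and 8.04 CPM against 1.20, 0.71, 1.17 and 0.69 CPM, 3.29). Fgf4 was higher beside epithelium (4.63, 1.98, 4.59 and 2.25 CPM against 0.37, 0.50, 0.66 and 0.75 CPM, 2.21) and in tooth germ spots (1.85, adjusted p = 0.064, edgeR), as was Fgf20 there (1.23, adjusted p = 0.082). The calls in tooth germ rested on 38 and 20 UMIs, and E14.5 replicate 2-4 went the other way for both genes, with 0.496 against 0.9989 CPM of Fgf4 and 0.99 against 1.01 CPM of Fgf20. Fgf23 was higher in oral and palatal mesenchyme (2.30) at 0.45 to 1.59 CPM from 9 UMIs, and Fgf14 (-2.16) and Fgf8 (-1.55, from 10 UMIs, in 3 of 4 areas) were lower there.

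Of the other ligands tested, 9 of 13 were lower in cortical neuron spots, 8 of 13 in surface epidermis, 8 of 14 in bone-forming spots and 5 of 13 in cartilage, where 36.4%, 27.8%, 26.3% and 11.3% of all genes were lower. The remaining 4 in cortical neuron spots were all higher, where 33.6% of all genes were. They were Fgf11 (0.99), Fgf12 (0.44), Fgf13 (1.13) and Fgf14 (1.09), the intracellular homologous factors, named here after their values were seen. In surface epidermis 2 were higher, Fgf20 (1.83) and Fgf21 (0.88), and in bone-forming and cartilage spots 0 were. Fgf8, a ligand of early brain and face patterning, was lower in bone-forming (-2.37, from 12 UMIs over the areas) and cartilage spots (-2.29, from 7 UMIs), and in basal and oral epithelium and surface epidermis it was called lower on 1 UMI each. Fgf14 was lower in surface epidermis (-3.31), beside epithelium (-2.77), in basal and oral epithelium (-2.50) and in bone-forming spots (-1.76), where Fgf3 was lower too (-1.35). Fgf1 was lower in GABAergic forebrain (-3.22, from 17 UMIs), Fgf21 in cortical neuron spots (-3.14, from 4 UMIs), Fgf4 in cartilage (-2.18, from 4 UMIs) and Fgf16 in retina (-1.70, from 18 UMIs). Calls on 1 or 2 UMIs, for which no fold is given, were those of Fgf6 and Fgf4 in GABAergic forebrain, Fgf4 in cortical neuron, Fgf6 in ventricular zone and Fgf20 in retina spots. Fgf6 in cortical neuron and olfactory spots and Fgf4 in olfactory and ventricular zone spots were called lower with 0 UMIs in all 4 areas, against 0.67 to 2.26 CPM elsewhere. In pigment spots Fgf17 (-1.64, from 14 UMIs, in 3 of 4 areas), Fgf13 (-0.59) and the coreceptor Gpc1 (-0.44) were lower.

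The carrier proteins Fgfbp1 and Fgfbp3, which release FGFs from the matrix, had opposite homes. Fgfbp1 had 211, 163, 299 and 249 CPM in surface epidermis against 13.5, 23.9, 28.0 and 28.8 CPM elsewhere (log2 fold change 3.18), and was also higher in basal and oral epithelium (1.84) and beside epithelium (2.17) and lower in cartilage (-1.33). In cartilage 3 of 4 areas were lower, and E14.5 replicate 1 had 27.1 CPM against 14.2 CPM elsewhere. In touching spots the surface epidermis list had 487, 693, 978 and 958 CPM, against 85.7, 201, 146 and 195 CPM farther away. The basal and oral epithelium list was higher there too. The part of epithelial RNA in the value of Fgfbp1 beside epithelium was not tested. Fgfbp3 had 391, 248, 460 and 194 CPM in ventricular zone spots against 64.1, 51.2, 44.7 and 26.5 CPM (2.89, adjusted p = 5.1e-04, edgeR).

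Between the stages none of these genes was called. The smallest unadjusted p belonged to Map2k1, Fgfbp1, Fgf17, Frs3, Spred1 and Fgf6, all with an adjusted p of 0.77 by edgeR's quasi-likelihood test. Fgfbp1 had 14.6 and 25.0 CPM at E14.5 against 45.8 and 38.6 CPM at E15.5, and Fgf17 had 2.27 and 14.6 against 1.95 and 2.50 CPM. In the interaction tests the ratio of a region to other tissue was lower at E15.5 for Fgfbp1 in basal and oral epithelium (-1.04) and retina (-1.44; 1.03% of all genes higher and 1.06% lower there), for Gpc3 in retina (-0.74) and bone-forming spots (-0.58) and for Sdc1 in oral and palatal mesenchyme (-0.65). It was higher for Fgf17 in bone-forming (2.75) and oral and palatal mesenchyme spots (2.70; 1.50% and 0.624% of all genes) and for Fgf14 in bone-forming spots (1.40). The levels inside the region overlapped between the stages for Fgfbp1, Gpc3, Sdc1 and Fgf14. Fgfbp1 had 119 and 104 CPM in basal and oral epithelium at E14.5 and 125 and 91.5 CPM at E15.5, and 12.8 and 21.8 against 43.6 and 35.7 CPM outside it. Gpc3 had 910 and 1220 against 964 and 1043 CPM in bone-forming spots, and 433 and 712 against 725 and 978 CPM outside them. Fgf17 had 15.8 CPM outside bone-forming spots in E14.5 replicate 2-4 and 1.90 to 2.53 CPM in the other areas, while bone-forming spots had 1.65 to 2.65 CPM in all 4.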

How the data were processed

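Per the labels, Space Ranger 1.3.1 (replicate 1 areas) and 2.0.0 (replicate 2-4 areas) made the deposited counts, whole UMIs per gene and spot on build mm10; software version and replicate number cannot be told apart, and the probe set is not given in the sources used here. The 10 genes and all lists were chosen with earlier results of these data known. Spots over tissue were used (19 barcodes off tissue were set aside, 12 tissue positions had no counts). A marker score was, over a list, the mean of each gene's share of a spot's UMIs divided by its 99.5th percentile, capped at 1; a spot joined its best list at a score of 0.25 or more with 3 detected markers and 1000 UMIs. That rule was set after seeing the data. Spots hold several cells, so no doublet caller was run. UMIs were summed per area and region and tested with edgeR 4.0.16 (R 4.3.3; quasi-likelihood, TMM, filterByExpr) over all genes, with Benjamini-Hochberg adjusted p under 0.1, and region by stage as an interaction. DESeq2 1.42.0, no TMM, other filters and score limits, thinning each area to the lowest mean UMIs per tissue spot (13959) and leaving out each area were alternatives. All 10 genes were named, with the 3 pathway genes of largest called change per region, the 6 of smallest p between stages and the 3 most alike genes (left out for Fgf10), of which 1 is not reported here. The fits were tested on simulated data. Intervals (95%, exact Poisson) and floors (3 counts) cover counting error only.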

Additional observations from a re-analysis of the deposited data

Results flagged for a closer look

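In section A of E14.5 replicate 2-4, the shallow section of that area, Fgfr2 had 182 CPM, apart from the 93.9 to 108 CPM of the other E14.5 sections, and in section C of E15.5 replicate 2-4 Fgfr4 had 49.1 CPM, apart from 33.9 to 36.2 CPM in the other E15.5 sections. Both lie beyond Dixon's 95% limit for 4 values; 20 groups were checked, of which chance gives about 1. The part of depth in the Fgfr2 value was not tested.

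The difference of a region from other tissue changed between the stages for Fgfr4 in basal and oral epithelium (-1.003 on the log2 scale), for Fgfr4 in bone-forming spots (-0.83) and for Fgf7 in bone-forming spots (-0.92), by the interaction test of edgeR. Each of these 3 calls was lost when either E15.5 area was left out, both of Fgfr4 without E14.5 replicate 2-4, and that of Fgf7 without TMM.

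Barcodes outside the tissue, 19 in the areas of replicates 2-4 with 562491 UMIs, were used in no comparison. They held 239 UMIs of Fgfr1, 92 of Fgfr2, 26 of Fgfr3, 7 of Fgfr4, 17 of Fgf2, 5 of Fgf7, 14 of Fgf9, 231 of Fgf15 and 6 of Fgf18, and 0 of Fgf10.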

How the results depend on the processing

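Over the regions, 86 called results of the 10 genes were refitted: in no setting did a sign reverse, and 95 values no longer passed the threshold while 1071 did, 15 of the 95 without E15.5 replicate 1 and 14 without E14.5 replicate 2-4. With at least 10 counts in every sum, which tests fewer genes, the number of the 10 called was 1 in surface epidermis, 3 in basal and oral epithelium, 3 in olfactory epithelium, 3 in cartilage, 3 in tooth germ, 5 in cortical neuron, 4 in GABAergic forebrain, 1 in ventricular zone and 2 in pigment spots. With each area thinned to the lowest mean UMIs per tissue spot it was 5 in oral and palatal mesenchyme and 3 in tooth germ; in oral and palatal mesenchyme it was 4 both at a higher score limit and at an adjusted p under 0.05. Leaving out 1 area at a time gave 5 to 8 in olfactory epithelium, 3 to 7 in cartilage, 3 to 8 in oral and palatal mesenchyme, 3 to 6 in pigment spots and 6 to 8 in muscle, and for the interaction 0 to 1 in basal and oral epithelium, cartilage, oral and palatal mesenchyme, tooth germ, GABAergic forebrain and pigment spots, 0 to 2 in bone-forming and cortical neuron spots and 0 to 4 in retina; 1 was called in bone-forming spots without TMM. Without TMM the median of all genes moved by -0.19 in bone-forming, -0.15 in cortical neuron, -0.11 in ventricular zone and -0.11 in skeletal muscle spots. Counts over all genes in the regions moved by more than 1.5 times in 24 refits (950 to 4514 genes) and less in 158, and in 41 interaction refits (0 to 1484 genes) and less in 24.

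Beside epithelium, Fgfr3 reversed with DESeq2 (0.0039), without TMM (0.01), thinned (0.06), leaving out 1 area (-0.07 to 0.15, positive without E15.5 replicate 2-4) and in the second layer of spots (0.26); Fgf10 lost its call thinned (0.47) and Fgf18 without E14.5 replicate 2-4 (0.44), while Fgf9 was called lower without E14.5 replicate 1 (-0.39) and in the second layer (-0.41). Between the stages DESeq2 called 28 genes and leaving out 1 area gave 0 to 78 (78 without E15.5 replicate 1); Fgfr1 reversed without E14.5 replicate 2-4 (-0.36 to 0.16 over the areas left out) and Fgf10 without E14.5 replicate 1 (-0.92 to 0.60). A lone area left in a stage was assumed to vary like the others. Same-numbered areas had correlated deviations (r = 0.30 over 15609 genes) but only 2 pairs exist, so they share a number; a fit with the replicate block called 0 genes. The causes were not tested. Low counts limit precision for Fgf10 (649 UMIs in all) and Fgf18 (2737) and in the regions of E14.5 replicate 1.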
